A study of Mus musculus with 6 samples.

Results

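The genes described here are 33 genes of cholesterol metabolism, named by their role as enzymes of synthesis, as genes of transport and turnover, or as regulators, and matched by symbol to the annotation of a mouse expression array. Of these, 28 were found among 19505 genes with a symbol, namely 16 of 18 synthesis enzymes, 7 of 8 transport genes and 5 of 7 regulators, each on a single transcript cluster (the set of probes that reports a gene). *Acat2*, *Tm7sf2*, *Soat1*, *Srebf1* and *Nr1h2* were not matched and were not analysed here. Hippocampi were collected on postnatal day 10 from pups raised on the milk of KO dams (3 arrays, called *LAO1* KO with KO milk) or on that of WT dams (3 arrays, called *LAO1* KO with WT milk). All 6 pups were themselves *LAO1* KO in a C57BL/6Jcl background and were labelled male. By these labels the groups differed in the genotype of the dam whose milk they drank after cross-fostering on the day of birth. *LAO1* encodes L-amino acid oxidase 1, an enzyme that releases hydrogen peroxide in mouse milk, and the knockout is carried by the whole animal. The comparison asks how the milk of KO dams, set against that of WT dams, relates to the expression of these genes in the developing hippocampus. Litters are not given, so the p-values measure only the spread between these arrays.

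Cholesterol does not cross the blood-brain barrier in appreciable amounts, and the brain makes its own from acetyl-CoA through mevalonate, isoprenoid units, squalene and lanosterol. Synthesis is high in early postnatal life, when oligodendrocytes build myelin, a membrane rich in cholesterol, while astrocytes supply neurons with cholesterol on ApoE particles. When sterols are low, SCAP escorts the transcription factor SREBP2 (*Srebf2*) out of the endoplasmic reticulum and the genes of synthesis are switched on together, and INSIG proteins hold SCAP back when sterols are plentiful. Oxysterols made from surplus cholesterol activate the LXR receptors (*Nr1h3*), which switch on the exporters *Abca1* and *Abcg1* and *Apoe*.

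Promoters of 6 of these genes are shown, since they are the 4 genes whose groups did not overlap (*Idi1*, *Msmo1*, *Sc5d*, *Nsdhl*), *Insig1*, the regulator with the smallest p-value, and *Hmgcs1*, the only gene, of those with a promoter window, with a match to the sterol regulatory element searched. Each sequence runs 5′ to 3′ on the strand of the gene and covers 250 bases before to 50 bases after the start in RefSeq, GRCm38.p6. Capitals mark matches, on either strand, to the sterol regulatory element as TCACNCCAC (bound by SREBP), to the NF-Y box CCAAT or to the Sp1 box GGGCGG. No match overlapped a match to another motif.
*Idi1* (chr13:8885356-8885655, plus strand): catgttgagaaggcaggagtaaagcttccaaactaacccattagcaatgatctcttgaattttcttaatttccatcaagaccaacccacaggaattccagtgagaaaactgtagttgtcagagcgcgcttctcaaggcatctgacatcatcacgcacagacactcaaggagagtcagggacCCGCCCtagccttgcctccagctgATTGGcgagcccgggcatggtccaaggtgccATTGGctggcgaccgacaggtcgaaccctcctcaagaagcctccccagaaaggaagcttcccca
*Msmo1* (chr8:64733529-64733828, minus strand): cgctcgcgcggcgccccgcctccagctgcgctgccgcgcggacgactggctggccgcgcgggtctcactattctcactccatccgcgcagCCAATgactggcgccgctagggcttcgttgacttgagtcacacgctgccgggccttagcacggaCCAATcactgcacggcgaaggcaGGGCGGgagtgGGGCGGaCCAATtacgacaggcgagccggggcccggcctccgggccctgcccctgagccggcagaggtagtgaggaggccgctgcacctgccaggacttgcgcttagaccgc
*Sc5d* (chr9:42264251-42264550, minus strand): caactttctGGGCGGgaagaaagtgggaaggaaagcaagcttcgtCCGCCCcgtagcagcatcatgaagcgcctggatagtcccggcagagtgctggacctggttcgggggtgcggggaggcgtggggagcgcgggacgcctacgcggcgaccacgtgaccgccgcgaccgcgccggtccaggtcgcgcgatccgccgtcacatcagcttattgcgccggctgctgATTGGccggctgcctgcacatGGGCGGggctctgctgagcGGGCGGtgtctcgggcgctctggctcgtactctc
*Nsdhl* (chrX:72918271-72918570, plus strand): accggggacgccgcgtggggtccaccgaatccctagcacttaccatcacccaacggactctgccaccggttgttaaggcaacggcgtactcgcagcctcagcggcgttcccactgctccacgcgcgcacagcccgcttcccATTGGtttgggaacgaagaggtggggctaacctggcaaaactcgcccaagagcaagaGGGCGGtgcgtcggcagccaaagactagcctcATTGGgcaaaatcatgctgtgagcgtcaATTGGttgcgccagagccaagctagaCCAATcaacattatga
*Insig1* (chr5:28071162-28071461, plus strand): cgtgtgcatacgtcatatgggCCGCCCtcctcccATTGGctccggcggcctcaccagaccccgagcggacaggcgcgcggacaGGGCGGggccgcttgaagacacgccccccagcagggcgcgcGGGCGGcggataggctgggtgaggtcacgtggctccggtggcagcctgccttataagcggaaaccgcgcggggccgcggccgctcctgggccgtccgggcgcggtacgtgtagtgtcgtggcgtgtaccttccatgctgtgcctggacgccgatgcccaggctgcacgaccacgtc
*Hmgcs1* (chr13:119690101-119690400, plus strand): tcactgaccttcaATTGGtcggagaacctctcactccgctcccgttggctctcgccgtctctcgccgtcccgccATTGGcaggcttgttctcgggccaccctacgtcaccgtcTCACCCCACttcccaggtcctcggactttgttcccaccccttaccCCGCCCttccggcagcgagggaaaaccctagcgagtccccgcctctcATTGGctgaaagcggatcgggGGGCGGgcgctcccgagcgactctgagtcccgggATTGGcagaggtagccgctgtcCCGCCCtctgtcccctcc
Windows of the same size were at hand for 23 of the 28 matched genes. The sterol regulatory element in this spelling was found in 1 of the 23 genes, beginning 137 bases before the *Hmgcs1* start, and in 1.24% of all 32851 promoter windows. CCAAT was found in 18 of the 23 genes (18 of 32 windows, since some genes have several starts) and in 37.4% of all windows, and GGGCGG in 20 of the 23 genes (23 of 32 windows) and in 35.7% of all windows. The *Nsdhl* window held 4 CCAAT matches and the *Idi1* window 2, so the gene measured higher and the gene measured lower with KO milk both carried this motif. A match is a run of letters in a window and was not tested as a binding site.

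The 6 arrays differed within as well as between the milk groups, and the cause was not tested. *Uty*, *Kdm5d* and *Eif2s3y* lie on the Y chromosome. Their mean log2 signal was 9.98 in KO milk replicate 2 and 3.26 and 3.35 in replicates 1 and 3. It was 10.4 and 9.97 in WT milk replicates 1 and 3 and 3.56 in replicate 2. Thus 3 arrays, KO milk replicates 1 and 3 and WT milk replicate 2, did not match the label male. The paper states that its neonatal mice were of both sexes. This signal was not balanced between the milk groups. KO milk replicate 3 lay farthest from the other arrays, at a root mean square distance of 0.479 to 0.537 on the log2 scale, against 0.321 to 0.407 between the other arrays. Transthyretin (*Ttr*), which defines the choroid plexus, a tissue beside the hippocampus, measured 10.8, 18.2 and 7.69 in the KO milk arrays, against 17.7, 17.7 and 17.1 in the WT milk arrays. Among the marker lists, the neuronal list was at a mean log2 level of 15.0 to 15.1 in the KO milk arrays and 15.0 to 15.1 in the WT milk arrays, and 7 of 8 markers of hippocampal fields were measured, with list levels of 11.5 to 11.7 in the KO milk arrays and 11.4 to 11.8 in the WT milk arrays. In each result that follows, values within the arrays of high Y-linked signal (KO milk replicate 2 against WT milk replicates 1 and 3) and of low Y-linked signal (KO milk replicates 1 and 3 against WT milk replicate 2) stand beside the main value where they differ in sign or by more than 1.5 times for a gene described in full.

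No cholesterol gene passed the adjusted threshold between milk groups, and the genes with the most negative differences were an isoprenoid enzyme, enzymes of late sterol synthesis and a regulator. Isopentenyl diphosphate isomerase (*Idi1*), methylsterol monooxygenase (*Msmo1*), the sterol desaturase *Sc5d* and the sterol sensor *Insig1* had the most negative log2 fold changes (KO milk minus WT milk), from -0.51 to -0.38, and *Nsdhl* was the single gene with every KO milk array above every WT milk array. Of the 28 genes, 17 were below 0 (60.7%, against 49.5% of all genes), and the median log2 fold change was -0.06, against 0.002 over all genes. By limma, 0 of the 28 passed an adjusted p of 0.05 and 0% of all genes did, with an adjusted p of 0.9996 for each of the 28. At an unadjusted p under 0.05, called the unadjusted mark here, 1 of 28 was lower (3.57%, against 1.70% of all genes) and 0 were higher (against 1.46% of all genes). The groups did not overlap for 3 genes that were lower (10.7%, against 4.25% of all genes) and for 1 that was higher (3.57%, against 4.15% of all genes). With standard errors of 0.164 to 0.292 (median 0.202), the 95% intervals of 27 genes included 0. With 3 arrays against 3, an exact two-sided permutation test of a single gene cannot go below p = 0.1.

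**Figure D1:**
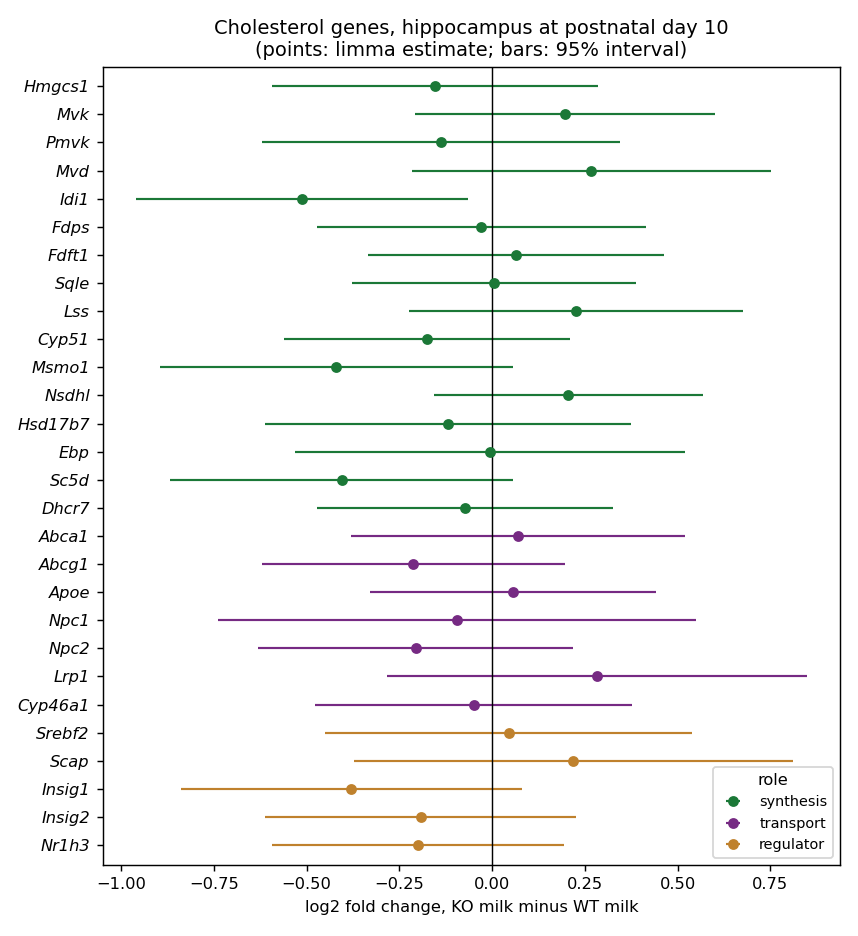
Log2 fold change of the 28 measured genes, KO milk minus WT milk, with the limma estimate as a point and its 95% interval as a bar, coloured by role and ordered along the pathway. The interval of *Idi1* (-0.96 to -0.07) lies below 0, and the other 27 intervals cross 0.

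The first stage of synthesis, the mevalonate and isoprenoid steps, held 6 measured genes, of which 4 were below 0, with a median log2 fold change of -0.08. *Hmgcs1* encodes the cytosolic HMG-CoA synthase, which makes the precursor of mevalonate. Its log2 intensity was 16.56, 16.83 and 16.17 in the KO milk arrays, against 16.68, 16.69 and 16.66 in the WT milk arrays. The WT milk arrays were almost level (SD 0.014, n = 3), while the KO milk arrays lay above them in replicate 2 and below them in replicates 1 and 3 (SD 0.331, n = 3). The difference was -0.15 (95% interval -0.59 to 0.28), at 0.02 without KO milk replicate 3, and 0.16 within the arrays of high Y-linked signal and -0.32 within those of low signal.

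*Idi1* encodes the isomerase that interconverts isopentenyl and dimethylallyl diphosphate, the building blocks of isoprenoids. It measured 11.63, 12.09 and 11.41 in the KO milk arrays, against 12.24, 12.20 and 12.23 in the WT milk arrays. Every KO milk array was below every WT milk array, replicate 2 by the smallest margin. The mean was 11.71 ± 0.35 with KO milk and 12.22 ± 0.02 with WT milk (SD, n = 3 each), a log2 fold change of -0.51 ± 0.20 (SE) or 0.701-fold, with an unadjusted limma p of 0.028, an adjusted p of 0.9996 and a 95% interval of -0.96 to -0.07. The difference was -0.14 within the arrays of high Y-linked signal and -0.68 within those of low signal, and -0.41, no longer past the unadjusted mark, with that signal as a term in the fit. It was -0.70 without KO milk replicate 2, still past the mark, and -0.36 without KO milk replicate 3, no longer past it. Leaving out KO milk replicate 1 or any WT milk array also brought the unadjusted p above 0.05, with differences of -0.47 to -0.52.

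The other genes of this stage lay on both sides of 0, with overlapping groups. Mevalonate kinase (*Mvk*) was at 0.20, phosphomevalonate kinase (*Pmvk*) at -0.14, mevalonate diphosphate decarboxylase (*Mvd*) at 0.27 and farnesyl diphosphate synthase (*Fdps*) at -0.03. *Mvd* was at 8.94, 8.90 and 9.63 in the KO milk arrays, against 8.96, 8.76 and 8.95 in the WT milk arrays, and only KO milk replicate 3 stood above the WT milk arrays. Without that replicate its difference was 0.03, and it was -0.05 and 0.52 within the arrays of high and low Y-linked signal.

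The 3 genes that carry squalene to lanosterol all lay at or above 0, with a median of 0.06 and overlapping groups. Squalene synthase (*Fdft1*) was at 0.06 and lanosterol synthase (*Lss*) at 0.23. The *Lss* difference was 0.02 without WT milk replicate 1, which was the lowest array. Squalene epoxidase (*Sqle*), the enzyme that adds the first oxygen to squalene, measured 11.76, 12.06 and 11.87 in the KO milk arrays, against 11.96, 11.93 and 11.78 in the WT milk arrays. The groups overlapped, and the difference was 0.004, with a 95% interval of -0.38 to 0.39. It was 0.19 within the arrays of high Y-linked signal and -0.11 within those of low signal.

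Of the 7 measured genes from lanosterol to cholesterol, 6 were below 0, with a median log2 fold change of -0.12, and this stage held 3 of the 4 genes whose groups did not overlap. *Msmo1* encodes an oxidase that removes methyl groups at the sterol ring. It measured 8.83, 8.84 and 8.21 in the KO milk arrays, against 9.04, 8.86 and 9.24 in the WT milk arrays. KO milk replicates 1 and 2 lay just under the lowest WT milk array and replicate 3 far under it. The difference was -0.42 ± 0.22 (SE; 95% interval -0.89 to 0.06), at -0.30 and -0.34 within the arrays of high and low Y-linked signal, and -0.21 without KO milk replicate 3.

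*Sc5d* introduces a double bond into the sterol ring late in the pathway. It measured 13.92, 14.10 and 13.38 in the KO milk arrays, against 14.26, 14.19 and 14.145 in the WT milk arrays. As for *Idi1*, KO milk replicate 2 came closest to the WT milk arrays and replicate 3 was lowest. The difference was -0.41 ± 0.21 (SE; 95% interval -0.87 to 0.06), at -0.11 and -0.55 within the arrays of high and low Y-linked signal. It was -0.56 without KO milk replicate 2, past the unadjusted mark, and -0.20 without KO milk replicate 3.

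*Nsdhl*, which removes a carboxyl group in the same demethylation that *Msmo1* begins, went the other way. It measured 13.02, 13.00 and 12.86 in the KO milk arrays, against 12.77, 12.76 and 12.72 in the WT milk arrays. All KO milk arrays lay above all WT milk arrays, and the arrays of each group were close together (SD 0.088 with KO milk and 0.028 with WT milk, n = 3 each). The difference was small, 0.21 ± 0.16 (SE; 95% interval -0.16 to 0.57), and was 0.25 and 0.18 within the arrays of high and low Y-linked signal. An unmoderated test on the same values, which takes the spread of this gene alone, passed the unadjusted mark and did not pass after adjustment.

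*Dhcr7*, the reductase of the last step to cholesterol in one branch of the pathway, measured 11.77, 12.16 and 11.89 in the KO milk arrays, against 12.15, 11.92 and 11.97 in the WT milk arrays. The groups overlapped, with a difference of -0.07 (95% interval -0.47 to 0.33) that was 0.10 and -0.09 within the arrays of high and low Y-linked signal. The lanosterol demethylase *Cyp51* was at -0.18, the sterol reductase *Hsd17b7* at -0.12 and the sterol isomerase *Ebp* at -0.01, all with overlapping groups.

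**Figure D2:**
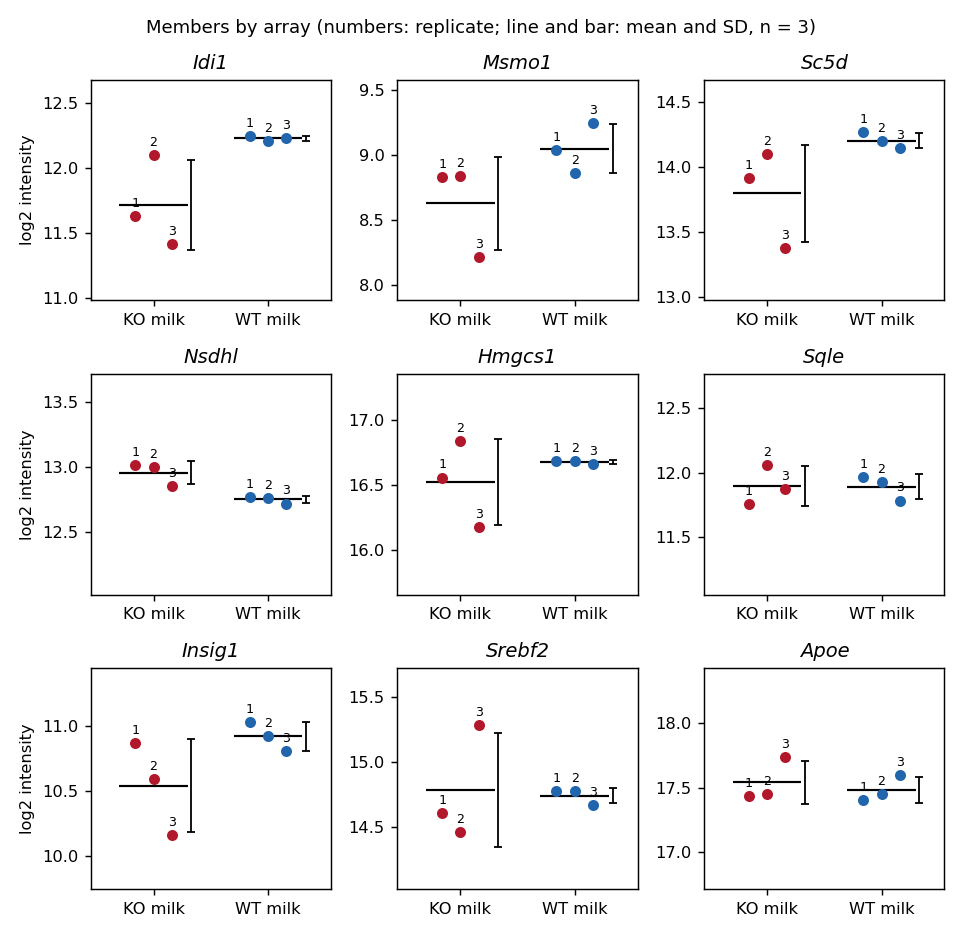
Log2 intensity of 9 genes on each array, KO milk on the left and WT milk on the right of each panel, with the replicate number above each point and the mean and SD (n = 3) as line and bar; all panels span the same number of log2 units. *Idi1*, *Msmo1* and *Sc5d* show every KO milk array below the WT milk arrays, *Nsdhl* shows the reverse, and the groups overlap in the other 5 panels.

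Transport and turnover genes showed no gene past an unadjusted p of 0.05, and the groups overlapped for all 7. Their median log2 fold change was -0.05, close to that of the 16 synthesis genes, also -0.05. *Abca1*, which loads cellular cholesterol onto lipoproteins, measured 11.11, 11.03 and 10.46 in the KO milk arrays, against 10.82, 10.76 and 10.805 in the WT milk arrays. KO milk replicates 1 and 2 were above the WT milk arrays and replicate 3 below them, for a difference of 0.07 (95% interval -0.38 to 0.52), at 0.21 and 0.03 within the arrays of high and low Y-linked signal. *Abcg1*, the exporter that acts on maturing particles, measured 7.80, 7.79 and 8.16 in the KO milk arrays, against 7.997, 8.10 and 8.29 in the WT milk arrays. KO milk replicates 1 and 2 were the lowest of the 6 arrays and replicate 3 lay among the WT milk arrays, with a difference of -0.21 ± 0.18 (SE, 95% interval -0.62 to 0.20) that was -0.35 and -0.12 within the arrays of high and low Y-linked signal.

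*Apoe*, which encodes the main apolipoprotein of the brain, measured 17.43, 17.45 and 17.73 in the KO milk arrays, against 17.41, 17.45 and 17.59 in the WT milk arrays. The arrays of both groups were interleaved, with a difference of 0.06 (95% interval -0.33 to 0.44), at -0.05 and 0.13 within the arrays of high and low Y-linked signal. *Lrp1*, a receptor that takes up ApoE particles, measured 12.22, 11.89 and 12.82 in the KO milk arrays, against 12.33, 12.05 and 11.70 in the WT milk arrays. Its highest array was KO milk replicate 3, and the difference of 0.28 ± 0.26 (SE, 95% interval -0.28 to 0.85) was 0.03 without that replicate, and -0.12 within the arrays of high Y-linked signal and 0.47 within those of low signal. *Cyp46a1*, the neuronal hydroxylase that turns cholesterol into an oxysterol able to leave the brain, measured 10.27, 10.26 and 10.42 in the KO milk arrays, against 10.52, 10.03 and 10.55 in the WT milk arrays. The KO milk arrays all lay within the range of the WT milk arrays, with a difference of -0.05 that was -0.27 and 0.32 within the arrays of high and low Y-linked signal. The lysosomal cholesterol carriers *Npc1* and *Npc2* were at -0.10 and -0.21.

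Over the regulators the median log2 fold change was -0.19, with 3 of 5 below 0, none past an unadjusted p of 0.05 and overlapping groups for all 5. *Insig1*, which retains SCAP in the endoplasmic reticulum and is itself switched on by SREBP2, had the most negative difference of them. It measured 10.87, 10.59 and 10.16 in the KO milk arrays, against 11.03, 10.93 and 10.81 in the WT milk arrays. KO milk replicate 1 lay just above the lowest WT milk array and the other 2 KO milk arrays lay below all of them. The difference was -0.38 ± 0.21 (SE; 95% interval -0.84 to 0.08), at -0.33 and -0.41 within the arrays of high and low Y-linked signal, -0.54 without KO milk replicate 1, past the unadjusted mark, and -0.19 without KO milk replicate 3.

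*Insig2*, the related retention protein, measured 7.42, 7.91 and 7.85 in the KO milk arrays, against 8.03, 7.81 and 7.92 in the WT milk arrays. Only KO milk replicate 1 lay below the WT milk arrays, and the difference was -0.19 (95% interval -0.61 to 0.23), at -0.04 without that replicate and -0.06 and -0.18 within the arrays of high and low Y-linked signal. *Nr1h3*, an LXR receptor for oxysterols, measured 6.24, 5.92 and 5.93 in the KO milk arrays, against 6.09, 6.29 and 6.30 in the WT milk arrays. Here KO milk replicates 2 and 3 were below all WT milk arrays, for a difference of -0.20 ± 0.18 (SE, 95% interval -0.59 to 0.19). The gene was dim, at a mean log2 intensity of 6.13.

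*Srebf2*, the transcription factor that drives the synthesis genes, measured 14.61, 14.46 and 15.28 in the KO milk arrays, against 14.77, 14.77 and 14.67 in the WT milk arrays. KO milk replicates 1 and 2 lay below all WT milk arrays and replicate 3 above them. The difference of 0.04 (95% interval -0.45 to 0.54) became -0.21 without KO milk replicate 3, and was -0.26 and 0.17 within the arrays of high and low Y-linked signal. Its escort *Scap* had the same order of the KO milk arrays, with 11.36, 11.31 and 12.36 in the KO milk arrays, against 11.39, 11.36 and 11.62 in the WT milk arrays. Its difference of 0.22 (95% interval -0.37 to 0.81) became -0.12 without KO milk replicate 3, and was -0.19 and 0.50 within the arrays of high and low Y-linked signal.

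The KO milk arrays were spread more widely than the WT milk arrays for most of these genes. The SD was larger with KO milk than with WT milk for 23 of the 28 genes (82.1%, against 58.5% of all genes). The median SD over the 28 genes was 0.331 with KO milk and 0.112 with WT milk (n = 3 arrays in each), against 0.235 with KO milk and 0.194 with WT milk over all genes. The difference in spread was seen in 14 of 16 synthesis genes and in all 5 regulators, and in 4 of 7 transport genes. It was not particular to the cholesterol genes. The SD was also larger with KO milk for 12 of 13 markers of mature oligodendrocytes and myelin and 10 of 10 of choroid plexus. The same held for 8 of 9 neuronal and 8 of 10 astrocyte markers. For microglia and hippocampal fields it was 4 of 7 each, and for endothelium and oligodendrocyte precursors 4 of 6 each. The 28 genes were also brighter, at a median log2 level of 10.8 against 7.06 for all genes. KO milk replicate 3 was the array farthest from the WT milk mean among the KO milk arrays for 14 of the 28 genes, against 49.7% of all genes. The cause of the spread was not tested, and the genes share the same 6 arrays and are not independent of each other.

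The order of the KO milk arrays differed by role. KO milk replicate 2 was the highest of the 3 KO milk arrays for 12 of 16 synthesis genes (75.0%, against 31.2% of all genes), including 3 of 3 genes from squalene to lanosterol and 6 of 7 from lanosterol to cholesterol. It was the highest for 0 of 7 transport genes and 1 of 5 regulators. The median deviation of the synthesis genes from the WT milk mean was -0.16, 0.14 and 0.01 in KO milk replicates 1, 2 and 3, against 0.01, -0.01 and -0.01 in the WT milk arrays. That of the transport genes was -0.06, -0.14 and 0.05 in the KO milk arrays, against 0.03, -0.04 and 0.11 in the WT milk arrays. That of the regulators was -0.10, -0.28 and -0.07 in the KO milk arrays, against 0.03, 0.003 and -0.003 in the WT milk arrays. KO milk replicate 2 thus had the highest median of the synthesis genes and the lowest of the regulators. It was the lowest KO milk array for 3 of 5 regulators, against 34.1% of all genes, and the highest for *Insig2*. This order was noticed after the values were seen and is a description of 3 arrays.

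**Figure D3:**
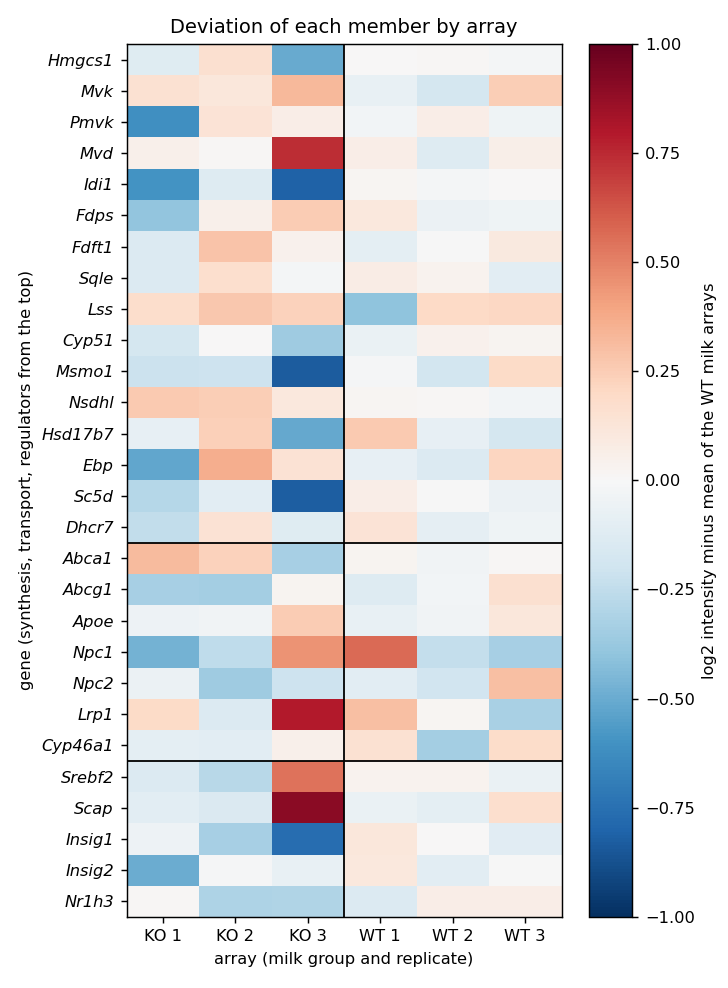
Log2 intensity minus the mean of the WT milk arrays for each of the 28 genes (rows, ordered by role and along the pathway) on each array (columns, KO milk left of the line and WT milk right of it); red is higher and blue lower, on a scale from -1 to 1. The KO milk columns carry the stronger colours, with KO milk replicate 3 blue for *Idi1*, *Msmo1*, *Sc5d* and *Insig1* and red for *Mvd*, *Lrp1*, *Srebf2* and *Scap*.

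KO milk replicate 2 was also the highest KO milk array for 11 of 13 myelin markers and 10 of 10 choroid plexus markers, against 31.2% of all genes. For other cell types this held for 4 of 7 hippocampal field markers and 3 of 6 of oligodendrocyte precursors. It held for 3 of 9 neuronal, 2 of 7 microglial, 1 of 10 astrocyte and 1 of 6 endothelial markers. Of 14 markers of mature oligodendrocytes and myelin, 13 were measured and all 13 were below 0, with a median of -0.93. By limma 0 of them passed the adjusted threshold, 11 were lower at the unadjusted mark (84.6%, against 1.70% of all genes) and 9 were lower without overlap of the groups (69.2%, against 4.25% of all genes). Myelin basic protein (*Mbp*) measured 15.36, 16.10 and 15.79 in the KO milk arrays, against 16.49, 16.61 and 16.56 in the WT milk arrays, a difference of -0.80 that was -0.43 and -1.03 within the arrays of high and low Y-linked signal. Over the myelin list, the mean log2 level came to 9.22, 9.99 and 9.34 in the KO milk arrays, against 10.38, 10.61 and 10.39 in the WT milk arrays, and KO milk replicate 2 was the highest KO milk array for 11 of the 13 markers (84.6%). The myelin list and the synthesis genes thus had the same highest KO milk array. The mean log2 level of the synthesis genes was 11.02, 11.31 and 11.07 in the KO milk arrays. In the WT milk arrays it was 11.20, 11.17 and 11.24. By this measure the myelin list was below the WT milk arrays in all 3 KO milk arrays. The synthesis genes were below them in KO milk replicates 1 and 3 and above them in replicate 2. In whole tissue, fewer cells of a type and less RNA per cell cannot be told apart, and the part of myelinating cells in the synthesis genes was not tested.

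Of the 10 choroid plexus markers, all 10 were measured and below 0, with a median of -0.89. By limma 0 of them passed the adjusted threshold, *Ttr* and *Clic6* were lower at the unadjusted mark (2 of 10, against 1.70% of all genes) and 0 were without overlap (against 4.25% of all genes). The list had a mean log2 level of 6.41, 9.04 and 6.12 in the KO milk arrays, against 8.93, 8.37 and 7.94 in the WT milk arrays. It too was highest in KO milk replicate 2 among the KO milk arrays. Astrocyte markers, from the cells that make most *Apoe*, had a median of -0.08, and neuronal markers a median of -0.02, with none of 10 and none of 9 past an unadjusted p of 0.05. Microglial markers (7 of 8 measured) had a median of -0.02, endothelial markers (6) of -0.07 and markers of oligodendrocyte precursors (6 of 7) of -0.01, and none passed. Of the 7 hippocampal field markers, with a median of 0.10, *Prox1* was higher at the unadjusted mark (0.54). It was also higher without overlap of the groups (1 of 7, against 4.15% of all genes). Lower without overlap were 1 of 10 astrocyte and 1 of 6 endothelial markers (against 4.25% of all genes). None of the neuronal, microglial or precursor markers was without overlap. The part of choroid plexus tissue, of the Y-linked signal and of single arrays in the values of the cholesterol genes was not tested beyond the values given beside them.

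**Figure D4:**
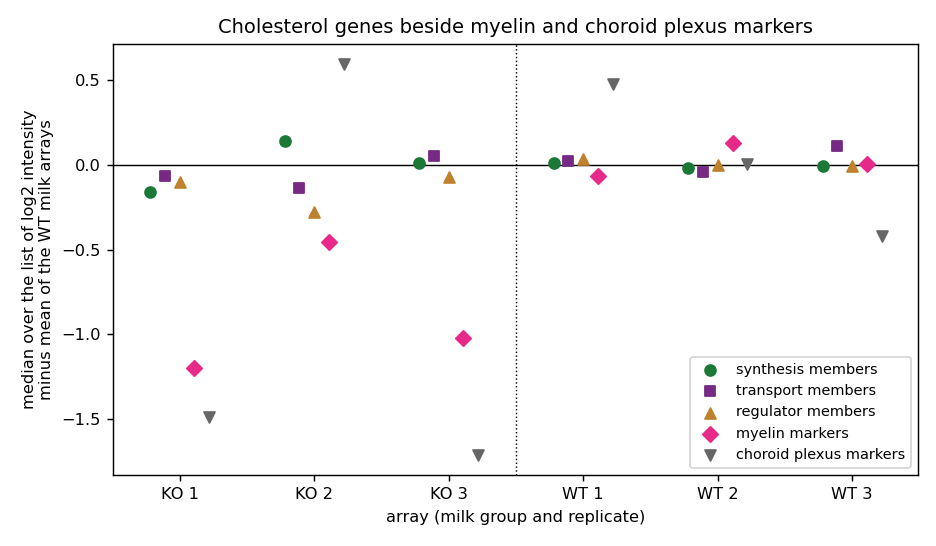
Median over each list of log2 intensity minus the mean of the WT milk arrays, for each array (KO milk left of the dotted line, WT milk right of it), with a symbol for each list, namely the synthesis, transport and regulator genes and the myelin and choroid plexus markers. The medians of the synthesis, transport and regulator genes stay between -0.28 and 0.14. Those of the myelin markers reach -1.20 in KO milk replicate 1 and -1.02 in replicate 3. The choroid plexus medians are -1.49, 0.60 and -1.71 in KO milk replicates 1, 2 and 3.

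Other genes of the pathway, from lists of neighbouring functions, gave no call between the milk groups. Of 78 such genes, 70 were measured, 33 of these were below 0, and the median log2 fold change was 0.006. By limma none passed an adjusted p of 0.05, and at the unadjusted mark of 0.05 there were 0 in either direction. The groups did not overlap for 3 genes that were lower (*Elovl6*, *Osbpl1a* and *Osbpl8*) and 3 that were higher (*Cyb5r3*, *Lrp8* and *Osbp*), all 6 named because of that. This was 4.29% of the 70 in each direction, against 4.25% of all genes lower and 4.15% higher, so these counts stood at the background.

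Among 9 of 10 genes of fatty acid synthesis driven by SREBP proteins, 5 were below 0 with a median of -0.04. *Elovl6*, which lengthens long-chain fatty acids, measured 13.80, 13.98 and 12.52 in the KO milk arrays, against 14.22, 14.10 and 14.00 in the WT milk arrays. Every KO milk array was below every WT milk array and replicate 3 was far below, for a difference of -0.68 ± 0.32 (SE). The difference was -0.22 without KO milk replicate 3, and -0.13 and -0.94 within the arrays of high and low Y-linked signal. It had the KO milk order seen in *Idi1* and *Sc5d*. Fatty acid synthase (*Fasn*) was at 0.27 and the elongase *Elovl5* at -0.16.

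Among 10 of 13 genes of SREBP processing and sterol sensing, 6 were below 0 with a median of -0.07. The retinoid X receptors that pair with LXR were at 0.50 (*Rxrg*) and 0.35 (*Rxra*), with *Ubxn8* at -0.34. *Rxrg* was dim, at a log2 intensity of 4.91 to 6.19. All 17 further genes of lipoproteins, uptake and export were measured, with 8 below 0 and a median of 0.02. The lipid transporter *Abca3* was at 0.47, the chaperone of lipoprotein receptors *Lrpap1* at 0.53 and the lipocalin *Apod* at -0.30. Among 18 of 19 genes of sterol transport inside the cell and of sterol esters, 6 were below 0 with a median of 0.02, and the oxysterol-binding protein relatives *Osbpl8*, *Osbpl2* and *Osbpl1a* were at -0.31, 0.28 and -0.19. The 6 oxysterol enzymes had a median of -0.01, with *Cyp7a1* at 0.34, *Cyp27a1* at -0.28 and *Cyp39a1* at 0.16. Of these, *Cyp27a1* lay at a log2 intensity of 3.63 to 4.65, near the Y-linked mean on the arrays of low Y-linked signal (3.26 to 3.56). *Cyp7a1* was also dim, at 5.65 to 6.70. Of 13 further sterol and isoprenoid enzymes, 10 were measured, 4 were below 0 and the median was 0.03, with the acetyl-CoA synthetase *Acss2* at 0.24, *Nus1* at -0.18 and the sterol reductase *Lbr* at -0.17.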

How the data were processed

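Total RNA from hippocampus was hybridized to 1-colour Clariom S mouse arrays, 1 sample per array. The authors deposited log2 intensities, 1 value for each transcript cluster and array. The submitters' processing notes name RMA and Transcriptome Analysis Console, without versions. RMA removes background, brings the arrays to a common distribution and summarizes the probes of a cluster, so a shift shared by all genes cannot be seen. The background step and the genome build were not given in the sources used here. The values ran from 2.23 to 19.70. Arrays give no read depth, and their number, 3 per group, limits the precision.

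The contrast of KO milk minus WT milk was estimated over all 22206 clusters, with no filter on intensity, by lmFit and eBayes of limma 3.58.1 (R 4.3.3), with Benjamini-Hochberg adjustment over all clusters and a threshold of 0.05. The fit was tested on simulated data. Symbols came from the platform annotation (19572 clusters with a symbol and 2634 without), the brightest cluster stood for each gene, and counts over all genes refer to these 19505. Promoters came from RefSeq, GRCm38.p6. Tables were joined with pandas 2.3.3.

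The genes and the lists were chosen with earlier results of these data known. Each gene of the set is named with its log2 fold change. Values on all arrays are given for genes at an unadjusted p under 0.05 or a change of at least 0.5 in size, the 2 of each role with the smallest p, and *Hmgcs1*, *Sqle*, *Dhcr7*, *Srebf2*, *Insig1*, *Insig2*, *Apoe*, *Abca1* and *Cyp46a1*. Up to 3 genes with the smallest p are named from each list of other pathway genes. The array values of *Sc5d*, *Nsdhl*, *Mvd*, *Scap*, *Elovl6*, *Mbp* and *Ttr*, and the names *Clic6*, *Prox1*, *Cyb5r3*, *Lrp8* and *Osbp*, lie outside this rule and were chosen after the values were seen. The alternatives were 3 further normalizations, 2 filters on dim clusters, array weights, another variance prior, an unmoderated t-test, the replicate number as a block, the Y-linked signal as a term or a split, and each array left out.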

Additional observations from a re-analysis of the deposited data

How the results depend on the processing

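Of 504 values of single genes under the alternatives, 478 stayed within the spread between replicates and, where a p-value was computed, on the same side of the mark. Values within the arrays split by Y-linked signal had no p-value and were judged by the spread alone. Of the rest, 16 moved further, 7 (all *Idi1*) lost the unadjusted mark and 3 gained it. Those 3 were *Nsdhl* under the unmoderated t-test, *Sc5d* without KO milk replicate 2 and *Insig1* without KO milk replicate 1. Much of the count of 478 was fixed by the settings. The 2 filters, the other variance prior, the t-test and the replicate block leave each log2 fold change as it was. Leaving out 1 of 3 arrays cannot shift a mean by as much as the spread used here. Under these settings a value could leave the count only through its p-value, so the count does not measure stability. Over 18 alternatives 10 of the 28 genes kept their sign, and 18 changed sign in at least 1. Those that kept it were *Idi1*, *Msmo1*, *Sc5d*, *Insig1*, *Insig2*, *Abcg1* and *Nr1h3* below 0 and *Mvk*, *Lss* and *Nsdhl* above 0. No cholesterol gene passed an adjusted p of 0.05 under any alternative. Among all clusters 1 did so, without KO milk replicate 2, and 0 did under the others.

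The unmoderated t-test found 1 of the 28 genes higher and 0 lower at an unadjusted p under 0.05. The fit with the Y-linked signal as a term found 0 lower, against 1 lower in the limma fit without that term. With 1 array left out at a time, 0 to 2 were lower (0 without KO milk replicate 3 or any WT milk array, 2 without KO milk replicate 2) and 0 were higher. Of the other pathway genes, array weights gave 1 higher and 2 lower, the t-test 1 lower, and leaving out 1 array 0 to 3 higher and 0 to 2 lower, with both highest counts without KO milk replicate 2. The median log2 fold change of the synthesis genes, -0.05 with all arrays, was 0.13 and -0.10 within the arrays of high and low Y-linked signal and ran from -0.19 (without KO milk replicate 2) to 0.088 (without KO milk replicate 1) with 1 array left out. That of the transport genes, also -0.05, was -0.27 and 0.13 within the arrays of high and low Y-linked signal and ran from -0.21 (without WT milk replicate 2) to 0.042 (without WT milk replicate 3). That of the regulators, -0.19, ran from -0.19 to -0.040 (without KO milk replicate 1). The synthesis median was also above 0 without WT milk replicate 1 (0.003), with the Y-linked signal as a term (0.005) and under quantile normalization again (0.002). Its sign therefore depends on these choices, and the cause was not tested.

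The labels number the replicates 1 to 3 in both groups, but arrays of the same number did not deviate together (correlations of 0.02, -0.13 and 0.02), so the numbers were not taken as pairs. With the replicate block, 1 of the 28 genes was lower and 0 were higher, and among the other pathway genes there was 1 of each at the unadjusted mark. No measured gene of these lists lay on several clusters, so the mean of all clusters gave no other value. Counts were not computed within the arrays split by Y-linked signal, where 1 group has a single array.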
